A study of Mus musculus with 9 samples.

Results

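Voltage-gated potassium, sodium and calcium channels and the HCN channels, with the other potassium channels and the subunits that assemble with them, carry the currents of excitable cells. Their genes were taken by symbol, as those that begin with Kcn or Cacn, those named Scn with a number and a or b, and those of the numbered HCN family. Of the 18193 genes measured on Affymetrix whole-genome mouse arrays by a probe set that names only that gene, 121 fitted this rule. Where a gene had several probe sets, the one brightest on average across the 9 arrays was read. Expression had been profiled in 3 samples each of auditory nerve tissue, cultured auditory nerve cells and neurospheres, so that the state of cells grown from the adult nerve could be set against the nerve itself. All came from CBA/CaJ mice of both sexes, aged 8 to 12 weeks, and no group carried an engineered allele. The tissue was dissected nerve without treatment. The cultured cells were dissociated with trypsin and grown to confluency over 5 to 7 days on coated plates in DMEM/F12 with 10% FBS and B27. The neurospheres were such cultures moved for 12 further days to serum-free proliferation medium with EGF (20 ng/ml), FGF (10 ng/ml) and heparin (2 µg/ml). Neither culture was sorted, and 100 ng of total RNA went into each labelling. The labels do not tie the 3 samples of a group to separate animals or cultures, so a p-value speaks to the scatter among these arrays alone, part or all of which may be technical, and their number limits the precision.

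Spiral ganglion neurons, whose axons form the auditory nerve, fire at high rates with precise timing. Sodium channels clustered at the axon initial segment and the nodes of Ranvier start each spike, Kv1 and Kv3 potassium channels limit and end it, and calcium channels of the endings couple it to transmitter release. Glial and epithelial cells of the cochlea use inward rectifier and two-pore-domain channels to move potassium and to hold their membrane potential. Auxiliary subunits set where these pores sit, how fast they gate and how many reach the membrane.

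Signals are given on the log2 scale of robust multi-array averaging (RMA), on which a difference of 1 is a 2-fold change. Tests between groups were made only within a probe set. Counts against the reference level described next, and sums over marker lists, do run across probe sets. The 72 measured genes of olfactory, vomeronasal and trace amine receptors served as a reference for probe sets with little target RNA. Their 95th percentile was 5.47 in tissue and 5.57 in each culture. Channel genes above it numbered 76 in tissue (62.8%, against 71.6% of all genes), 47 in cultured cells (38.8% against 67.1%) and 50 in neurospheres (41.3% against 67.7%). In 25 genes the level lay above the reference in tissue alone, in 6 it did so in a culture but not in tissue, and 39 were at or under it in all 3 groups. The median SD of the channel genes between the 3 arrays of a group was 0.15 in tissue, 0.13 for the cultured cells and 0.14 for neurospheres.

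Tissue RNA differed from culture RNA in a control measure. The actin control probe sets for the 3′ and 5′ ends differed by 2.71 ± 0.35 (SD, n = 3) in tissue, while the gap in the cultured cells was 0.36 ± 0.037 and that of neurospheres 0.70 ± 0.15. This measure ran with the groups, so its part in a difference from tissue cannot be told apart from the group. The first neurosphere array lay over 1 log2 unit from the mean of the other arrays of its group for 5 channel genes (Kcnd3, Kcnj8, Kcnj10, Kcnk10 and Kcnk12), against 0 or 1 gene on each of the other arrays. The defining markers of the labelled tissue were present, since none of the 16 spiral ganglion neuron markers and none of the 11 measured Schwann cell markers lay at or under the reference in tissue. In cultured cells 8 of the 16 neuron markers did so, and in neurospheres 7.

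Most channel genes that changed outside the tissue fell. A gene was called at an adjusted p under 0.05 in limma and a fold change over 1.5. In cultured cells against tissue, 57 of the 121 genes fell (47.1%) and 6 rose (4.96%), where 22.0% of all genes fell and 20.4% rose (42.4% called in either direction). In neurospheres against tissue, 53 fell (43.8%) and 7 rose (5.79%), where 21.0% of all genes fell and 21.7% rose (42.7% in either direction). Both comparisons use the same tissue arrays. Counted by overlap alone, all 3 neurosphere arrays lay below all 3 tissue arrays for 65 channel genes and above them for 13, beside 31.4% and 36.7% of all genes. The cultured-cell arrays lay below for 70 and above for 10, beside 34.8% and 33.8% of all genes. The median log2 difference over the 121 genes was -0.52 in cultured cells and -0.37 in neurospheres, beside -0.0091 and 0.047 over all genes. The largest difference was -8.15, and 30 of the 57 and 33 of the 53 were over 4-fold, as were 3 of the 6 rises in cultured cells and 0 of the 7 in neurospheres. Of the 57 and 53 falls, 6 and 7 were in genes at or under the reference in both groups compared, where a probe set reads little target. In 30 and 31 more, 1 of the groups was, so that the fold rests on that low level. In bulk samples such as these, fewer cells of a type and less RNA per cell cannot be told apart.

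**Figure D1:**
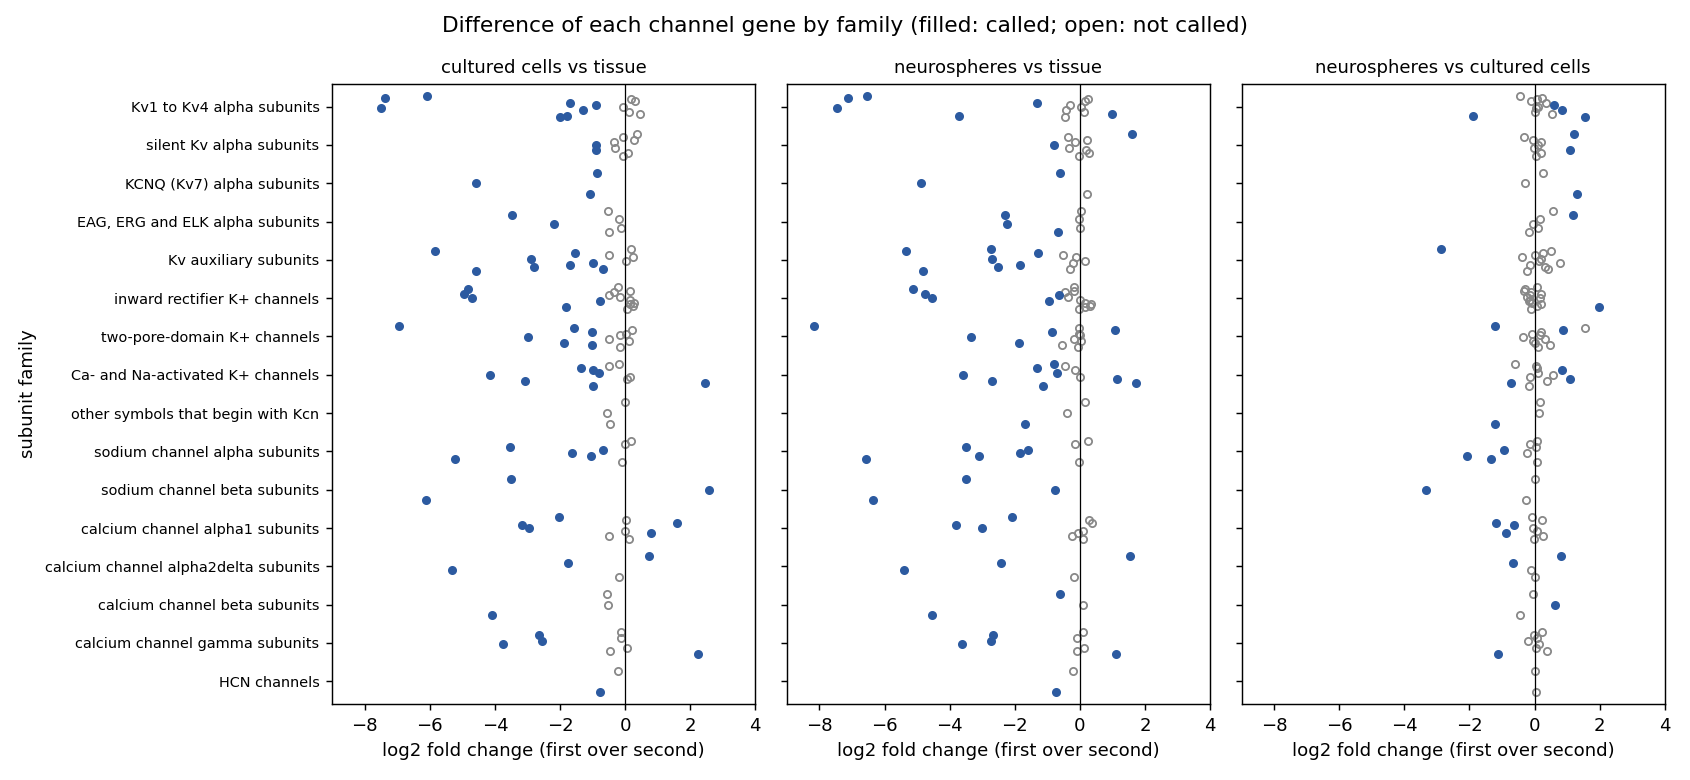
Log2 fold change of each of the 121 channel genes (horizontal axis), by subunit family (vertical axis), in 3 comparisons; filled points passed the limma threshold and open points did not. The long left tails in both comparisons with tissue reach 8.15 below 0, and the comparison of the cultures stays between -3.32 and 1.97.

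The Kv1 to Kv4 pore-forming subunits held 2 of the 3 deepest falls in neurospheres. Of 13 measured, 8 fell (61.5%) and 0 rose in cultured cells, and 5 fell (38.5%) and 1 rose in neurospheres. Of all genes, 22.0% fell in cultured cells and 21.0% in neurospheres. Kcna1 (Kv1.1), which keeps the threshold of auditory neurons high, read 12.94, 13.09 and 13.21 on the tissue arrays, 6.84, 6.86 and 7.25 on the cultured-cell arrays and 6.34, 6.85 and 6.45 on the neurosphere arrays. Its partner Kcna2 (Kv1.2) read 11.15, 11.30 and 11.37 in tissue, 4.04, 3.94 and 3.72 in cultured cells and 4.04, 4.07 and 4.30 in neurospheres. Kcnc1 (Kv3.1), which repolarises fast-spiking neurons, read 11.76, 11.41 and 11.50 in tissue, 4.30, 3.86 and 4.05 in cultured cells and 3.91, 4.23 and 4.16 in neurospheres. For all 3 genes every tissue array stood far above every culture array, and the cultures lay within 0.44 of each other in their means. In neurospheres the difference from tissue was -6.53 for Kcna1 (SE 0.143, adjusted p = 3.11e-09, limma), -7.14 for Kcna2 (SE 0.106, adjusted p = 6.76e-10) and -7.46 for Kcnc1 (SE 0.125, adjusted p = 1.09e-09). In cultured cells the differences were -6.09, -7.37 and -7.49. Kcna2 and Kcnc1 lay at or under the reference in both cultures, where a probe set reads little target, so their folds rest on that low level. On its other probe sets Kcna1 differed in neurospheres by -7.29, -6.95 and 0.28, and Kcna2 by -7.81, -0.88 and -0.0007. Those of Kcnc1 showed smaller differences than the one used (-4.79, -3.96 and 0.31). The last value of each gene was not called.

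The A-type channels of this family went different ways. Kcnd2 (Kv4.2) read 7.47, 7.45 and 7.23 in tissue, 5.66, 5.66 and 5.43 in cultured cells and 3.56, 3.91 and 3.60 in neurospheres, a stepwise order without overlap. Kcnd1 (Kv4.1) rose in neurospheres by 0.99 (SE 0.109, adjusted p = 5.08e-05), from 7.22 to 8.22, and its difference in cultured cells was 0.46, under the fold threshold. Kcnd3 (Kv4.3) fell by 2.02 in cultured cells, while in neurospheres it read 6.09, 7.60 and 7.62 beside 7.53, 7.78 and 7.35 in tissue and was not called there (difference -0.46, 95% interval -1.30 to 0.39).

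The RefSeq promoter table (GRCm38.p6) holds the start of 92 of the 121 genes. On the probe sets used, Kcnk1, Kcnc1 and Kcna2 fell over 100-fold in each culture, and Cacna2d1 rose in both. Their upstream 250 bases are shown to set the sequence before the start of genes that moved together beside one that moved the other way. They lie at chr8:125994852-125995101, chr7:46396218-46396467, chr3:107101317-107101566 and chr5:15934441-15934690, all on the plus strand, and capitals mark matches, on either strand, to the TATA box (letters TATAAA), the box named CCAAT after its letters, the GC box (letters GGGCGG) or one end of the RE1 element that the repressor REST binds (letters GGACAG):
Kcnk1: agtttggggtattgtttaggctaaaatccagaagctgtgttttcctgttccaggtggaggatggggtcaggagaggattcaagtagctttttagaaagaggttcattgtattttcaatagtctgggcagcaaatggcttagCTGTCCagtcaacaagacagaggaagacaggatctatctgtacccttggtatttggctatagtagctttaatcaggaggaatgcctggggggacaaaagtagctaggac
Kcnc1: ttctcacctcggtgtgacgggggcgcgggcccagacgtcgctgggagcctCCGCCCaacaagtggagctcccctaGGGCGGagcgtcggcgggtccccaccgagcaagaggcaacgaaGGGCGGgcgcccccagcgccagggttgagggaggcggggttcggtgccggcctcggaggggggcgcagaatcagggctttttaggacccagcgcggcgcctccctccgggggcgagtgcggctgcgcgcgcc
Kcna2: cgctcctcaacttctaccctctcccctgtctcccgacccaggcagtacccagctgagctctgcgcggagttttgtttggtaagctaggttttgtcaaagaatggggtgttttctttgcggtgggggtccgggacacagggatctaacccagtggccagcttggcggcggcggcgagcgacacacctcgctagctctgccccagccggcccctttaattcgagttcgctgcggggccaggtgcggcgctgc
Cacna2d1: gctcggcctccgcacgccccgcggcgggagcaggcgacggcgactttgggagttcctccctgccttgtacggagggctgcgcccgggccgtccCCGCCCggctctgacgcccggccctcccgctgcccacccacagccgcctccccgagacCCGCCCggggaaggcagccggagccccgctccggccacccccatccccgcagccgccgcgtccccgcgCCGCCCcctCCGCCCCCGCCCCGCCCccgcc
GC boxes were found 3 times before Kcnc1 and 6 times before Cacna2d1, where some of the matches overlap each other, and the RE1 end once before Kcnk1. Kcna2 held none of the 4 motifs. The GC content was 44.4% for Kcnk1, 74.4% for Kcnc1, 62.4% for Kcna2 and 82.4% for Cacna2d1. Over the 127 upstream regions of the channel genes, 43.3% held a GC box, 28.3% a CCAAT box, 20.5% the RE1 end and 3.94% a TATA box, beside 32.7%, 33.8%, 18.7% and 12.4% of all 32851 regions in the table. Over the 62 regions of channel genes that fell in neurospheres, the shares were 38.7%, 25.8%, 21.0% and 6.45%. These letters describe the window and say nothing on whether a factor binds there.

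Auxiliary subunits of Kv channels fell with the pores. Of 12 measured, 8 fell in cultured cells (66.7%) and 7 in neurospheres (58.3%), beside 22.0% and 21.0% of all genes. On the probe sets used, 0 were called upward by limma in either. Kcnip3 was not called in neurospheres on the one used (-0.29). Another of its probe sets, at 5.08 in tissue and 6.10 in neurospheres, was called higher there (1.02). Kcnab2 (Kvβ2), a cytoplasmic partner of Kv1 channels on axons, read 11.14, 11.19 and 11.26 in tissue, 5.45, 5.37 and 5.27 in cultured cells and 5.83, 5.79 and 5.98 in neurospheres, and the 3 groups did not overlap. It fell by 5.83 in cultured cells (SE 0.0858, adjusted p = 6.47e-11) and fell by 5.33 in neurospheres (SE 0.0897, adjusted p = 1.09e-09). Kcnip4, Kcnip2 and Kcnip1, calcium-binding partners of Kv4 channels, fell in neurospheres, with differences of -4.81, -2.50 and -1.83, as did Kcne2, a small single-pass partner of several K+ channels (-2.69).

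Kcnab1 (Kvβ1) departed from its family in cultured cells. Its arrays read 8.88, 8.80 and 8.94 in tissue, 8.48, 8.97 and 9.68 in cultured cells and 6.39, 5.50 and 6.57 in neurospheres, so tissue and cultured cells overlapped and neurospheres lay below both. The difference of cultured cells from tissue was 0.17 (95% interval -0.39 to 0.72), and that of neurospheres was -2.72 (SE 0.244, adjusted p = 1.33e-05). A second probe set of the gene averaged 4.24 in tissue, 6.53 in cultured cells and 4.08 for the neurosphere arrays, and was called higher in cultured cells.

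**Figure D2:**
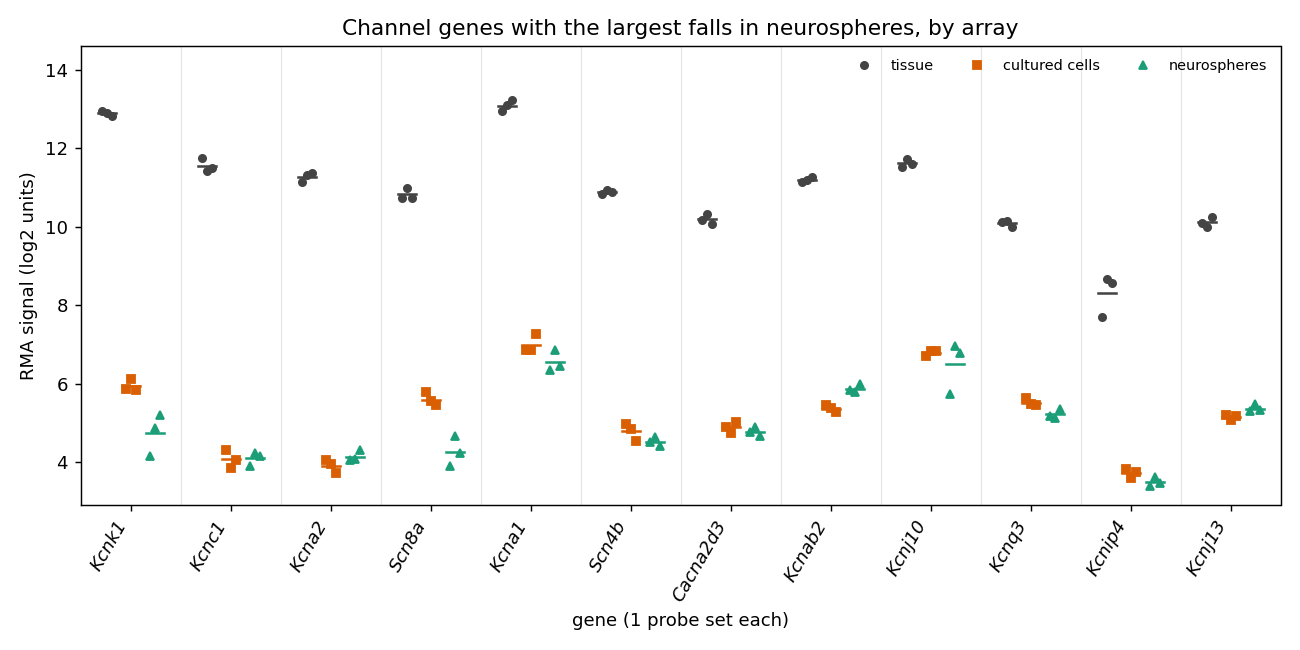
RMA signal (log2 units, vertical axis) of 12 channel genes with the largest falls in neurospheres against tissue, on each of the 9 arrays; points are arrays and short lines are group means. Tissue arrays lie between 7.69 and 13.21 and culture arrays of the same genes between 3.40 and 7.25, with no overlap of tissue and culture within a gene.

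Among the KCNQ subunits, which carry the M-current that restrains repeated firing, Kcnq3 read 10.11, 10.15 and 9.99 in tissue, 5.63, 5.47 and 5.44 in cultured cells and 5.17, 5.12 and 5.35 in neurospheres. Tissue stood over 4 units above both cultures. It fell by 4.57 in cultured cells (SE 0.0897, adjusted p = 2.38e-10) and fell by 4.87 in neurospheres (SE 0.0961, adjusted p = 2.06e-09). Kcnq1, the partner of KCNE1 in the stria vascularis, fell in cultured cells (-0.86) and neurospheres (-0.60), the latter call lost without the first tissue array (-0.44) or the first (-0.53) or second (-0.56) neurosphere array. Kcnq5 fell in cultured cells by 1.08 and in neurospheres differed from tissue by 0.22 (95% interval -0.38 to 0.81). Of the 6 EAG, ERG and ELK genes, Kcnh2 (the ERG channel that carries a slowly deactivating current) changed most. It read 9.81, 9.88 and 8.68 in tissue, 5.97, 6.12 and 5.83 in cultured cells and 6.84, 7.25 and 7.37 in neurospheres, and its groups did not overlap although the third tissue array lay over 1 log2 unit below the others. Without that array its differences from tissue were -3.87 in cultured cells and -2.69 in neurospheres, beside -3.48 and -2.30 with it.

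Silent Kv subunits, which form channels only with pore subunits of other Kv families, were near the reference in tissue, where 1 of 9 lay above it. Kcns1 fell in both cultures at levels under it. Kcnf1 (Kv5.1) rose in neurospheres. It read 5.03, 5.26 and 5.42 in tissue, 5.60, 5.55 and 5.67 in cultured cells and 7.24, 6.64 and 6.60 in neurospheres. All neurosphere arrays lay above all others, and the rise over tissue was 1.59 (SE 0.180, adjusted p = 6.07e-05). A second probe set with nearly the same mean over the arrays read 3.82, 5.11 and 8.63 as group means in tissue, cultured cells and neurospheres, a rise in neurospheres of 4.80 over tissue and 3.51 over cultured cells. Which of them represents the gene thus moves its size from 3.01-fold to a log2 difference of 4.80.

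Inward rectifiers buffer potassium in glia and epithelia, and 5 of 15 (33.3%) fell in each culture with 0 called upward by limma. Of all genes, 22.0% fell in cultured cells and 21.0% in neurospheres, and 42.4% and 42.7% were called in either direction. Kcnj10 (Kir4.1), the potassium channel of satellite glia and of the intermediate cells of the stria vascularis, read 11.53, 11.73 and 11.60 in tissue, 6.70, 6.83 and 6.83 in cultured cells and 5.75, 6.95 and 6.78 in neurospheres. Tissue stood apart and the cultures overlapped. It fell by 4.83 in cultured cells (SE 0.0890, adjusted p = 1.76e-10) and fell by 5.13 in neurospheres (SE 0.275, adjusted p = 4.85e-07), the latter -4.75 without the first neurosphere array. Kcnj16 (Kir5.1), which joins Kir4.1 in heteromers, fell in cultured cells (-4.72) and neurospheres (-4.54), and so did Kcnj13 (Kir7.1) of transporting epithelia (-4.96 and -4.75). Kcnj8 (Kir6.1), the pore of the vascular ATP-sensitive channel, fell by 1.81 in cultured cells and was not called in neurospheres, with arrays at 7.75, 6.54 and 6.95 beside 6.79, 6.88 and 7.08 in tissue. Kcnj11 (Kir6.2) stayed within 0.32 between any pair of groups, at means of 8.61, 8.75 and 8.43, and was called in no comparison.

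Two-pore-domain channels set the resting potential. Kcnk1 (TWIK-1) read 12.95, 12.89 and 12.82 in tissue, 5.85, 6.12 and 5.83 in cultured cells and 4.14, 4.86 and 5.19 in neurospheres. The order tissue, cultured cells, neurospheres held without overlap. It fell by 6.95 in cultured cells (124-fold, SE 0.101, adjusted p = 6.18e-11) and fell by 8.15 in neurospheres (284-fold, SE 0.229, adjusted p = 1.04e-08), where its mean lay under the reference, so that this fold rests on a low level. The other probe set of Kcnk1, at 10.51 in tissue, was called lower by smaller amounts (-5.24 and -5.48). It was not called between the cultures (-0.24), so the step between them rests on the probe set used. Kcnk2 (TREK-1), a channel opened by stretch and lipids, fell in cultured cells (-2.98) and neurospheres (-3.35), as did Kcnk5, or TASK-2 (-1.88 and -1.86). Kcnk12 (THIK-2) was called upward in neurospheres by 1.08, and its arrays read 6.54, 5.23 and 5.54 beside 4.60, 4.88 and 4.62 in tissue. Without the first neurosphere array the rise was 0.69 and still called. Kcnk10 (TREK-2) had the widest spread of any member, an SD of 1.45 in neurospheres, where it read 6.88, 4.29 and 4.45, and its difference from tissue was -0.04 (95% interval -1.38 to 1.30).

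Potassium channels that open with calcium or sodium inside the cell split by gene. Of 11 genes, 6 fell in each culture (54.5%), beside 22.0% of all genes in cultured cells and 21.0% in neurospheres. Kcnn2 (SK2) fell by 4.15 in cultured cells and fell by 3.60 in neurospheres, and Kcnt1 (Slack), a sodium-activated channel, fell too (-3.08 and -2.69). Kcnt2 (Slick), the close relative of Kcnt1, went the other way. It read 3.98, 3.99 and 4.36 in tissue, 6.16, 6.60 and 6.91 in cultured cells and 5.86, 5.78 and 5.87 in neurospheres, without overlap of tissue and culture. Its rise was 2.45 in cultured cells (SE 0.183, adjusted p = 1.58e-06) and 1.73 in neurospheres (SE 0.118, adjusted p = 2.31e-06), from a tissue level under the reference. Kcnn4 (KCa3.1), the intermediate-conductance channel of many dividing cells, read 6.81, 6.55 and 6.83 in tissue, 6.86, 6.88 and 6.60 in cultured cells and 8.02, 7.69 and 7.86 in neurospheres. Neurospheres stood above both other groups, which overlapped. It rose there by 1.13 over tissue (SE 0.119, adjusted p = 3.90e-05) and by 1.08 over cultured cells (SE 0.117, adjusted p = 0.000209). Kcnma1, the BK channel, is described with the probe sets below.

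Of 8 measured sodium channel pores, 5 fell (62.5%) and 0 rose in each culture, where 22.0% (cultured cells) and 21.0% (neurospheres) of all genes fell. Scn8a (Nav1.6), the sodium channel of adult nodes of Ranvier, read 10.72, 11.00 and 10.74 in tissue, 5.78, 5.55 and 5.45 in cultured cells and 3.90, 4.66 and 4.22 in neurospheres, in 3 separate bands. It fell by 5.23 in cultured cells (SE 0.115, adjusted p = 4.45e-10) and fell by 6.56 in neurospheres (SE 0.181, adjusted p = 9.78e-09). A probe set of Scn8a brighter in tissue (11.03) averaged 4.81 in cultured cells and 4.49 in neurospheres, and another averaged 9.40, 5.22 and 5.08. Both were called lower than tissue in each culture. Neither was called between the cultures, so the gap between the cultures rests on the probe set used. Scn1a (Nav1.1) fell in cultured cells (-3.54) and neurospheres (-3.49), and its other 2 probe sets were called lower by different amounts, with -6.75 and -7.01 on one that averaged 10.32 in tissue and -1.95 and -1.85 on the other. Scn2a (Nav1.2), the channel of immature and unmyelinated axons, fell less (-0.67 and -1.60), and the first of these calls was no longer called without the third cultured-cell array (difference -0.56). Scn7a (Nax), a sodium-sensing channel of glia, read 7.84, 7.89 and 7.99 in tissue, 7.26, 6.11 and 7.25 in cultured cells and 4.39, 4.80 and 5.22 in neurospheres. The order tissue, cultured cells, neurospheres held without overlap. Its difference from tissue was -1.03 in cultured cells, -0.65 without the low second array, and -3.10 in neurospheres (SE 0.186, adjusted p = 9.93e-07). Scn3a also fell (-1.62 and -1.84), but lay at or under the reference in every group. Scn9a, Scn10a and Scn11a, sodium channels of sensory neurons elsewhere in the body, were at or under the reference in every group on the probe sets used.

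The sodium channel β subunits, adhesion molecules that also tune gating, diverged. Scn4b (β4), which shapes resurgent current, read 10.84, 10.92 and 10.89 in tissue, 4.96, 4.83 and 4.54 in cultured cells and 4.51, 4.65 and 4.40 in neurospheres, with tissue far above both cultures. It fell by 6.11 in cultured cells (SE 0.113, adjusted p = 1.77e-10) and fell by 6.37 in neurospheres (SE 0.0937, adjusted p = 6.64e-10). Scn2b fell as well (-3.51 and -3.49). Scn3b (β3), the form of immature neurons, read 6.26, 6.13 and 6.13 in tissue, 8.95, 8.64 and 8.64 in cultured cells and 4.76, 5.83 and 5.67 in neurospheres, so that cultured cells stood above and neurospheres below tissue. It rose by 2.57 in cultured cells (5.93-fold, SE 0.105, adjusted p = 2.04e-08). Its call in neurospheres (-0.75, SE 0.244, adjusted p = 0.0248) was lost on leaving out the first neurosphere array, where the difference was -0.42, and on leaving out any single tissue array, where the adjusted p ran from 0.0541 to 0.0779. A second probe set was called higher in cultured cells as well, by 1.38.

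Of 9 calcium channel pores, 3 fell in each culture (33.3%), beside 22.0% of all genes in cultured cells and 21.0% in neurospheres. In cultured cells 2 rose (22.2%, beside 20.4% of all genes). The 33.3% called in neurospheres lay under the 42.7% of all genes called in either direction. Cacna1d (Cav1.3), the L-type channel of hair cells and pacemaking neurons, fell by 3.18 in cultured cells and fell by 3.82 in neurospheres. Both probe sets of Cacna1d carry the mark of one shared between transcripts. The other one averaged 3.98 in tissue, under the reference, and was not called (0.26 and 0.18). Cacna1e (Cav2.3) fell (-2.96 and -2.99), and so did Cacna1a, the P/Q-type channel of nerve endings (-2.02 and -2.09). Cacna1c (Cav1.2), the L-type channel of muscle and many other cells, read 6.15, 6.13 and 5.86 in tissue, 7.43, 7.71 and 7.75 in cultured cells and 6.55, 6.43 and 6.32 in neurospheres. Cultured cells stood above both other groups, with a rise over tissue of 1.58 (SE 0.118, adjusted p = 1.50e-06). This probe set carries the mark of one shared between transcripts, and the other probe set of the gene differed by -0.077 (adjusted p = 0.58 in limma without shared probe sets). Cacna1g (Cav3.1), a T-type channel, rose by 0.81 in cultured cells and differed by -0.07 in neurospheres.

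α2δ subunits carry calcium channels to the membrane, and of 4 measured, 2 fell in both cultures, 1 rose in both and Cacna2d4 was at or under the reference in every group and not called (-0.19 in each culture). Cacna2d3 read 10.17, 10.32 and 10.06 in tissue, 4.89, 4.74 and 5.01 in cultured cells and 4.75, 4.90 and 4.67 in neurospheres. Tissue stood over 5 units above both cultures. It fell by 5.31 in cultured cells (SE 0.104, adjusted p = 2.39e-10) and fell by 5.41 in neurospheres (SE 0.104, adjusted p = 1.89e-09). Cacna2d2 fell (-1.75 and -2.42). Cacna2d1 read 8.97, 9.07 and 9.20 in tissue, 9.82, 9.73 and 9.92 in cultured cells and 10.43, 10.78 and 10.70 in neurospheres, rising in steps without overlap. Its rise over tissue was 0.74 in cultured cells (SE 0.0941, adjusted p = 7.35e-05) and 1.55 in neurospheres (SE 0.116, adjusted p = 4.01e-06), and 3 of its other 4 probe sets were called upward in both. Cacnb4, a cytoplasmic β subunit of neurons, fell (-4.08 and -4.53).

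Among the γ subunits, Cacng5, Cacng2 and Cacng4, of which Cacng2 (stargazin) and Cacng4 are better known as partners of AMPA receptors, fell in neurospheres (-3.61, -2.66 and -2.73) and in cultured cells (-3.74, -2.65 and -2.54). Cacng8, another partner of AMPA receptors, read 4.53, 4.64 and 4.58 in tissue, 7.06, 6.75 and 6.64 in cultured cells and 5.82, 5.90 and 5.35 in neurospheres. It rose by 2.23 in cultured cells (SE 0.114, adjusted p = 1.01e-07) and by 1.10 in neurospheres (SE 0.144, adjusted p = 0.000152), and its groups did not overlap. A second probe set of Cacng8, at 4.93 in tissue, differed from tissue by 0.44 in cultured cells and 0.43 in neurospheres. Both differences were under the fold threshold. In tissue both probe sets lay under the reference. Of the HCN pacemaker channels, Hcn2 and Hcn3 were measured here. Hcn3 fell (-0.78 and -0.72), and Hcn2 differed from tissue by -0.21 and -0.20 without a call.

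Neurospheres and cultured cells differed in fewer channel genes. Between them 13 rose in neurospheres (10.7%) and 14 fell (11.6%), where 9.0% of all genes rose and 8.91% fell (17.9% in either direction), and 94 of the 121 were not called. The median difference was 0.045, beside 0.051 over all genes. The neurosphere arrays lay above all cultured-cell arrays for 31 channel genes and below for 24, beside 27.8% and 20.6% of all genes. The falls were led by Scn3b (-3.32, SE 0.254, adjusted p = 3.15e-05), Kcnab1 (-2.89, SE 0.346, adjusted p = 0.000351), Scn7a (-2.07), Kcnd2 (-1.90) and Scn8a (-1.34), and included Cacna1c (-1.20), Cacng8 (-1.13), Cacna1g (-0.87) and Kcnt2 (-0.72). No other probe set of Scn8a (-0.32 to 0.21), Cacna1c (-0.20) or Cacng8 (-0.0098) was called between the cultures. Scn3b, Kcnab1, Scn7a and Kcnd2 each had another probe set called lower. By family, 3 of 8 sodium channel pores and 3 of 9 calcium channel pores fell and 0 of either were called upward by limma. Among the calcium channel pores, Cacna1d lay at or under the reference in both cultures.

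The rises were of potassium channels and calcium channel auxiliary subunits. Kcnj8 read 4.96, 5.20 and 5.15 in cultured cells and 7.75, 6.54 and 6.95 in neurospheres, a rise of 1.97 (SE 0.265, adjusted p = 0.00064) that was 1.64 without the first neurosphere array. Kcnq5 rose by 1.30, Kcnf1 by 1.22, Kcnh2 by 1.18, Kcns3 by 1.10, Kcnn4 by 1.08, Kcnc2 by 0.86 and Kcnmb4 by 0.85. For Kcnj8, Kcnq5, Kcns3 and Kcnmb4 the neurosphere mean lay within 0.22 of the tissue mean, and 0 of the 4 were called between neurospheres and tissue on the probe sets used. Another probe set of Kcnq5 (0.70) and one of Kcns3 (0.65) were called higher in neurospheres than in tissue. These values and those against tissue use the same neurosphere arrays. Some calls were thin. Kcnk12 (0.87, adjusted p = 0.0483) was lost on leaving out any of 5 arrays, and was 0.48 without the first neurosphere array. Kcnd3 (1.56) was lost without the third neurosphere array (1.30) or the second cultured-cell array (1.43). Cacna1d was lost without the third neurosphere array (-0.57), the first cultured-cell array (-0.53) or the third (-0.56), Kcna6 without the third neurosphere array (0.54) or the first cultured-cell array (0.53), and Kcnt2 without the third cultured-cell array (-0.54).

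**Figure D3:**
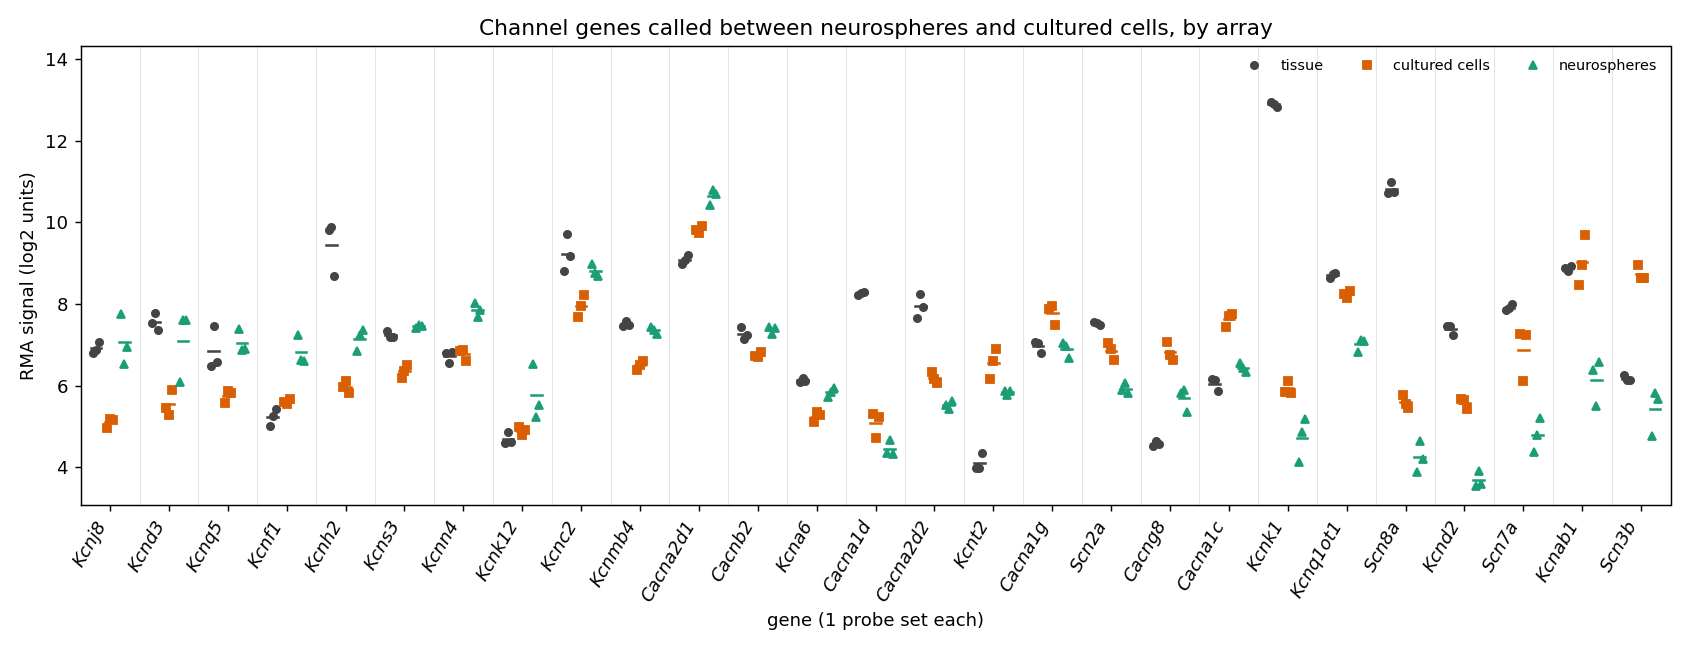
RMA signal (log2 units, vertical axis) on each of the 9 arrays for the 27 channel genes called between neurospheres and cultured cells, ordered from the largest rise (Kcnj8, 1.97) to the largest fall (Scn3b, -3.32); points are arrays and short lines are group means. Scn3b and Cacna1c are high in cultured cells, and for Kcnj8, Kcns3 and Kcnmb4 the neurosphere arrays lie in or near the range of tissue.

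Non-coding genes with channel symbols were read in the same way. Kcnq1ot1, the long RNA that silences neighbours at the imprinted Kcnq1 locus, read 8.65, 8.73 and 8.75 in tissue, 8.25, 8.15 and 8.31 in cultured cells and 6.83, 7.12 and 7.09 in neurospheres. It fell in neurospheres, with -1.70 against tissue (SE 0.103, adjusted p = 1.04e-06) and with -1.22 against cultured cells (SE 0.103, adjusted p = 4.98e-05). On this probe set the difference of -0.47 between cultured cells and tissue was under the fold threshold. Another probe set, at 9.28 in tissue, was called lower in cultured cells (-1.69), as was one at 4.86 in tissue (-0.91). The remaining ones were not called there (-0.52, -0.24 and 0.45). Kcnmb4os1 and Kcnmb4os2 were at or under the reference in every group and not called.

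Several genes have probe sets that read differently, and the 254 probe sets of the 121 genes were also tested one by one. In neurospheres against tissue 101 were called lower and 18 higher (119 of 254), and in cultured cells against tissue 103 and 12 (115 of 254). Of all 45037 probe sets, 17891 and 18254 were called in either direction in these comparisons. Of 42 called genes with several probe sets, 26 had another one called the same way in each of those comparisons. Kcnma1, which differed by -0.78 in neurospheres on the probe set used, a call, and by -0.19 in cultured cells, was called lower on its other 4 probe sets in both cultures, with -3.96 as the largest difference in neurospheres. Cacna1b (the N-type channel) differed by 0.27 on the probe set used and by -2.22 and -2.37 on 2 others. Kcnip1 (-1.83) and Kcnj3 (-0.94) fell in neurospheres by far less on the probe set used than on another one (-5.19 and -4.83). Kcna6 (Kv1.6) differed by -0.29 on the one used and by -2.20 on another in neurospheres. Cacnb1 had one probe set called lower (-0.62) and one called higher (0.60) in neurospheres, the only member with calls in both directions, and the first was lost without the second tissue array (-0.51) or the third neurosphere array (-0.53). In all, 11 genes not called in neurospheres against tissue had another probe set that was. Scn9a was among them, with 2 probe sets called lower (-1.08 and -0.67) at levels under the reference.

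**Figure D4:**
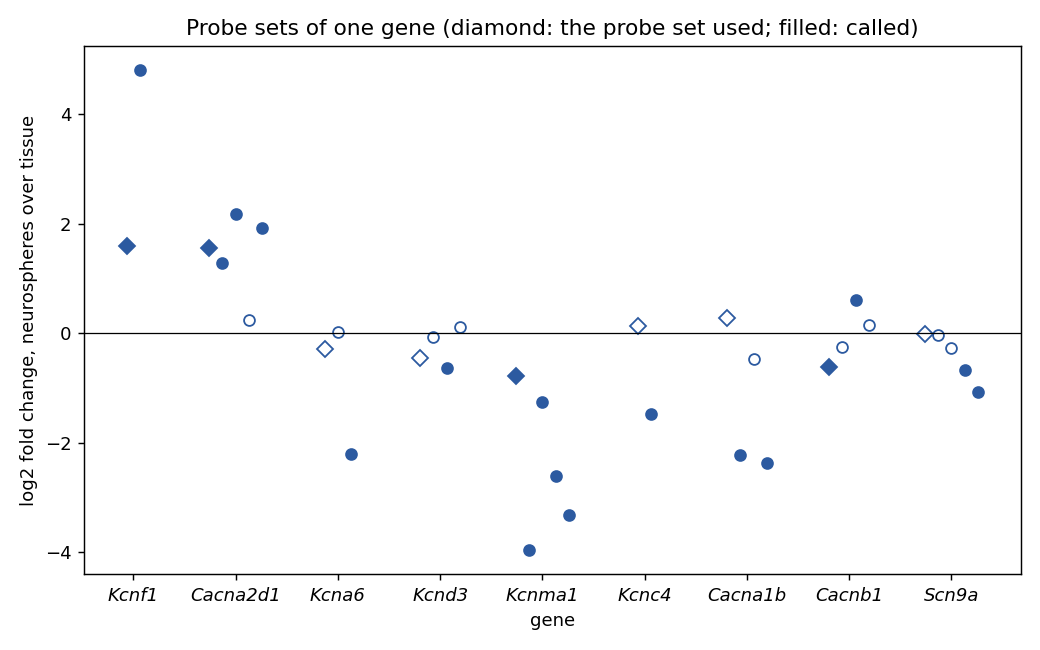
Log2 fold change in neurospheres over tissue (vertical axis) for each probe set of 9 channel genes chosen, after their values were seen, for differences between probe sets; diamonds are the probe sets used, and filled symbols passed the threshold. Kcnf1 spans 1.59 to 4.80, Kcnma1 -0.78 to -3.96, and Cacnb1 has calls on both sides of 0.

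Genes that hold channels at the axon initial segment and node were examined beside them. Of 25 measured, 19 fell and 1 rose in cultured cells, and 20 fell and 0 rose in neurospheres. The median log2 differences were -1.84 and -1.79, beside -0.0091 and 0.047 over all genes. Of all genes, 22.0% fell and 20.4% rose in cultured cells, and 21.0% and 21.7% in neurospheres. Between neurospheres and cultured cells 4 rose and 2 fell (median -0.042), where 9.0% of all genes rose and 8.91% fell (median 0.051). The largest falls in neurospheres were of Cntnap2 (Caspr2), which anchors Kv1 channels beside the node (-5.56), Dlg2, a scaffold of the same complex (-5.51), Bcan, a matrix proteoglycan of nodes (-4.84), and Lgi1, a secreted ligand of ADAM22 (-4.40). Fgf13, an intracellular modulator of sodium channels, rose by 1.64 in cultured cells and differed by -3.40 between neurospheres and cultured cells. Ank3 (ankyrin-G), the anchor of sodium channels, fell in cultured cells (-2.43) and neurospheres (-1.41), and was higher in neurospheres than in cultured cells by 1.03.

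Among 27 measured pumps, exchangers, leak channels and calcium release genes, 15 fell in each culture, 3 rose in cultured cells and 2 in neurospheres. The medians were -1.05 and -1.25, beside -0.0091 and 0.047 over all genes. Of all genes, 22.0% fell and 20.4% rose in cultured cells, and 21.0% and 21.7% in neurospheres. Between neurospheres and cultured cells 2 rose and 6 fell (median -0.080), where 9.0% of all genes rose and 8.91% fell (median 0.051). The largest falls in neurospheres were of Slc24a2, a potassium-dependent sodium-calcium exchanger (-7.66), Atp2b3 and Atp2b2, plasma membrane calcium pumps (-6.87 and -6.81), and Unc80, a subunit of the NALCN leak channel (-5.85). Rest, the repressor of neuronal genes that binds the RE1 element, rose by 1.77 in cultured cells (adjusted p = 2.56e-07) and by 1.51 in neurospheres (adjusted p = 4.66e-06). Ano1, a calcium-activated chloride channel, rose by 1.08 in cultured cells.

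Markers of several cell types moved with the same groups. Over all genes, 22.0% fell and 20.4% rose in cultured cells, and 21.0% and 21.7% in neurospheres. The 16 spiral ganglion neuron markers summed, on the linear scale, to 78130 to 86250 signal units per tissue array, 1457 to 1704 per cultured-cell array and 1840 to 2232 per neurosphere array, and 15 fell in cultured cells and 14 in neurospheres. Schwann cell and satellite glia markers summed to 57880 to 58510, 4816 to 5222 and 4185 to 4719, with 10 of 11 lower in each culture. Markers of the cochlear epithelium and lateral wall summed to 36260 to 41040, 1102 to 1655 and 1655 to 2242, with 10 of 14 lower in each. Oligodendrocyte and astrocyte markers fell in 9 and 8 of 10, and macrophage markers in 7 of 10 in each culture. Melanocyte markers fell in 4 of 7 in cultured cells and in 2 of 7 in neurospheres, the latter near the 21.0% of all genes. Fibroblast and matrix markers rose, 10 of 14 in cultured cells, where 1 fell, and 13 of 14 in neurospheres, where 0 fell. All 7 measured cell cycle genes rose in both. The cell cycle genes summed to 216.3 to 232.8 per tissue array, 14080 to 15790 per cultured-cell array and 3881 to 5387 per neurosphere array. All 7 were lower in neurospheres than in cultured cells, beside 8.91% of all genes. The part of these shifts in the channel differences was not tested.

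Smooth muscle and pericyte markers separated the cultures from each other. They summed to 6763 to 8759 in tissue, 13500 to 16160 in cultured cells and 2508 to 3895 in neurospheres. Of the 10, 5 were lower and 2 higher in neurospheres than in cultured cells, beside 8.91% and 9.0% of all genes. On the probe sets used, Cacna1c, Cacna1g and Kcnab1 were also lower in neurospheres than in cultured cells, while Kcnj8 was higher. Endothelial markers summed to 3248 to 3539, 4714 to 5323 and 3977 to 5855. Of the 9, 6 were lower than in tissue in each culture, beside 22.0% and 21.0% of all genes. In cultured cells 1 was higher and in neurospheres 2 were, beside 20.4% and 21.7% of all genes. The part of either list in these channel genes was not tested.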

How the data were processed

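The authors scanned Affymetrix mouse arrays and, per the labels, made the deposited log2 signals by RMA in Affymetrix Expression Console. MAS5 is named too, and no versions are stated. Of 45101 probe sets, 64 were controls, 34945 named 1 gene, 932 several and 9160 none. For a gene with several, the probe set brightest on average stood for it. A RefSeq table (GRCm38.p6) served only for symbols and upstream sequences. Groups came from the sample titles. For each pair of groups, limma 3.58.1 (R 4.3.3) was fitted to their 6 arrays by lmFit and eBayes, 2-sided and without a block, and p-values were Benjamini-Hochberg adjusted over all 18193 genes. The scripts were tested on simulated data. The members, lists and rule for named genes were chosen with earlier results of these data known. The rule took the 10 largest rises and falls per comparison, up to 3 members per family by change and by level, members against their family or with opposed probe sets, and a fixed set, of which 42 of 51 were used. The others are not reported here. Genes named to complete a count, or for a spread or an intermediate probe set, were added after their values were seen. Alternatives were other scalings, probe set rules, filters, priors, tests and thresholds, a replicate block, and leaving out each array. A planned search of protein sequences was not run. The RMA values were not recomputed from scans, and signals near the reference level compress differences.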

Additional observations from a re-analysis of the deposited data

How the results depend on the processing

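In both comparisons with tissue, more channel genes fell than rose and the median stayed below 0 under all alternatives run, and over the 3 comparisons 138 of 147 counts and medians stayed close to the main value. Between the cultures, which of higher and lower calls was the more frequent turned with the setting (22 and 18 with no fold threshold, 15 and 14 with all 9 arrays fitted together, 13 and 12 without the third cultured-cell array), and the median turned to -0.089 without the 40% of genes with the lowest expression. Without the 40% of genes with the lowest expression, 38 channel genes were left. Of these, 3 rose and 22 fell in neurospheres against tissue (median -1.65), and 24 fell in cultured cells against tissue (median -1.06). These values describe a smaller set, without the members of lowest signal. With no fold threshold, 10 rose in cultured cells against tissue and 22 rose in neurospheres against cultured cells. At a fold change over 2, 7 rose and 9 fell between neurospheres and cultured cells. The methods' t-test gave, at an unadjusted p under 0.05 and a fold change over 1.5, 6 higher and 52 lower in neurospheres against tissue, 6 and 55 in cultured cells against tissue, and 12 and 14 between the cultures, and after Benjamini-Hochberg adjustment 6 and 50, 6 and 54, and 11 and 11. With the replicate block, the counts were 7 higher and 53 lower, 6 and 57, and 13 and 14, as without it. The deviations of samples with the same number from their group means correlated from -0.19 to 0.21. With 3 arrays in a group, this cannot tell whether such samples share an animal or culture, which the labels do not state. Leaving out each array in turn gave 7 higher and 50 to 53 lower in neurospheres against tissue, 6 higher and 57 to 61 lower in cultured cells against tissue, and 10 to 15 higher and 12 to 15 lower between the cultures. Of single genes, Cacna1b turned to -1.20 in neurospheres and -1.21 in cultured cells on the mean of its probe sets, and Cacna1c in cultured cells turned to -0.077 without shared probe sets, since another probe set then stands for the gene. Of 60, 63 and 27 calls in the 3 comparisons, 47, 46 and 11 were made in every alternative that tested the gene. In all 3 groups, 39 channel genes lay at or under the reference level.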
